A study of Drosophila melanogaster with 12 samples.

Results

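Nuclear genes for subunits of the mitochondrial respiratory chain were followed in S2 cells treated with TMPyP4. Members were all gene entries whose FlyBase symbol begins with ND-, UQCR-, COX4, COX5, COX6, COX7, COX8 or ATPsyn, and they numbered 80 of 17494. They comprised 40 entries of complex I, 9 of complex III, 16 of complex IV and 15 of complex V. S2 is a Drosophila melanogaster cell line of embryonic origin with features of hemocytes, the insect blood cells, and every library came from this line. The labels also name zebrafish RNA as part of the preparation, and how it was set aside is not given. TMPyP4 is a cationic porphyrin that binds G-quadruplexes, folds of guanine-rich nucleic acid. Cells were exposed for 48 hours to the solvent DMSO or to TMPyP4 at 25, 50 or 100 µmol/L, with 3 libraries in each of 4 groups. The labels give 100 µg/L for the DMSO group without saying what the value refers to. The series asks how this ligand affects gene expression. The labels do not say whether the 3 libraries of a group came from separate cultures, so p-values measure only the spread between these libraries.

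The respiratory chain sits in the inner mitochondrial membrane. Complex I takes electrons from NADH and passes them to ubiquinone, complex III passes them on to cytochrome c, and complex IV uses them to reduce oxygen. Protons moved across the membrane by these complexes drive complex V, the ATP synthase. Each of these complexes combines subunits encoded in the nucleus, which are imported into the organelle, with subunits encoded in the mitochondrial genome.

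The libraries held 4669194 to 9662038 gene counts. Their expression of hemocyte-like markers matched the label in part. Of 9 such markers, 7 had enough counts to be tested, among them srp, Hml, vkg and Col4a1, whereas He and NimC1 had at most 5 and 3 counts in any library. Summed over the 9 markers, the level was 935 to 1585 CPM (counts relative to a library size adjusted by TMM, the trimmed mean of M-values) in the 9 TMPyP4 libraries, against 1963 to 2242 CPM in the 3 DMSO libraries. The groups did not overlap in this sum, most of which came from Col4a1, vkg and Hml. Of single genes tested, 4.41% lay below DMSO in all 9 TMPyP4 libraries. Of the 7 tested markers, 3 were lower at 25, 4 at 50 and 5 at 100 µmol/L in edgeR's test, at a Benjamini-Hochberg adjusted p under 0.05, and none was higher. Of all genes tested, 1.13%, 5.16% and 3.59% were lower in these comparisons. The markers srp, Pxn, Hml, vkg and Col4a1 are in the longest of 5 equal length classes, described below. In that class 69, 316 and 206 of 1451 genes were lower. The marker crq had a log2 fold change of -0.009 over all TMPyP4 libraries. With the offset for gene length described below, 4 markers were lower at 100 µmol/L, where 2.78% of all genes were, and 0 at the other concentrations. Marker lists of neurons, of muscle, of germline and of gut and fat body each summed to at most 3.41 CPM in any library, and aly, can, Lsp2 and Yp1 were at 0 in all 12. The part of the marker decrease in the values below was not tested. In these bulk libraries, fewer cells of a kind and less RNA per cell cannot be told apart.

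Of the 80 members, 57 had enough counts to be tested (32 in complex I, 6 in complex III, 8 in complex IV and 11 in complex V), and each of these had at least 1605 counts summed over the 12 libraries. The remaining 23 included 21 entries whose symbol carries the suffix L, such as COX4L, ND-51L1 and ATPsynbetaL. These are duplicates of a subunit gene, and many such duplicates are known in Drosophila for expression in the testis. Of these copies, 11 had 0 counts in every library, and the other 10 reached at most 12 counts in a library (1.52 CPM). The copies with the most counts over the 12 libraries were COX7CL with 67 and ATPsynepsilonL with 56. Of the copies at 0, COX6AL2 shares 67% of its exonic bases with Ir75d on the same strand, and COX5BL shares 100% of its own with Trmt6 on the other strand. A count of 0 allows up to 3 counts, which is 0.31 to 0.643 CPM (without TMM scaling) in these libraries, for counting error only. COX7CL had 4, 4 and 9 counts in the DMSO libraries, 5, 12 and 8 at 25, 3, 5 and 0 at 50 and 6, 6 and 5 at 100 µmol/L, so the groups overlapped.

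ND-B8 and ND-MNLL, which carry no such suffix, also had 0 counts in every library. All of the exonic bases of ND-MNLL (100%) are shared on the same strand with CG45089, which had 0 counts too. ND-B8 shares 15.4% of its exonic bases with Gs1l on the other strand and none on its own. UQCR-14, whose exons are covered completely (100%) by CG32576 on the other strand, was counted nonetheless, with 609 to 1089 counts per library. The libraries were stranded per the labels, but whether counting used the strand is not stated. Of the 57 tested members, 23 share exonic bases with a gene on the other strand, 10 of them over more than 10% of their length, and 3 share bases on the same strand. Values of these members are uncertain to that extent.

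Levels in DMSO were compared as CPM per kilobase of exon. The tested members of complex V were the most abundant, with a median of 504.5 CPM per kilobase, against 137.9 in complex I, 244.7 in complex III and 217.1 in complex IV. In complex V, ATPsyngamma, the rotating central stalk, had 1276 ± 226 CPM per kilobase and ATPsynbeta, the catalytic subunit, 1238 ± 106 (SD, n = 3 each), so these neighbours in the order did not differ beyond their spread. ATPsynC, which forms the membrane ring, had 435.6 ± 26.9 CPM per kilobase (SD, n = 3). The lowest tested member of complex V was ATPsyndelta at 84.2 ± 7.43 CPM per kilobase (SD, n = 3), whose annotated exonic length of 3817 bases is the longest among the tested members, with 35.6% of it shared with CG2962 on the other strand.

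In complex IV, COX5A was highest at 811.9 ± 81.3 CPM per kilobase and COX7A lowest at 128.8 ± 12.4 (SD, n = 3 each). COX4 had 375.2 ± 66.8 and COX6B 220.5 ± 17.7 CPM per kilobase (SD, n = 3 each). In complex III, the core proteins UQCR-C2 and UQCR-C1 had 517.3 ± 55.4 and 502.3 ± 67.5 CPM per kilobase, a difference within their spread, and UQCR-11 had 8.9 ± 2.07 (SD, n = 3 each). UQCR-11 was the least abundant of the 57 tested members on this scale. In complex I, ND-B12 was highest at 497.9 ± 118 CPM per kilobase and ND-AGGG lowest at 27.3 ± 4.25 (SD, n = 3 each), which are both subunits of the membrane arm. The peripheral-arm subunits ND-75, ND-51 and ND-49, which carry electrons from NADH towards ubiquinone, had 228.1 ± 20.4, 153.4 ± 12.7 and 122.4 ± 10.4 CPM per kilobase (SD, n = 3 each). The highest tested member stood above the lowest by a factor of 18.2 in complex I, 58.1 in complex III, 6.3 in complex IV and 15.2 in complex V.

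**Figure D1:**
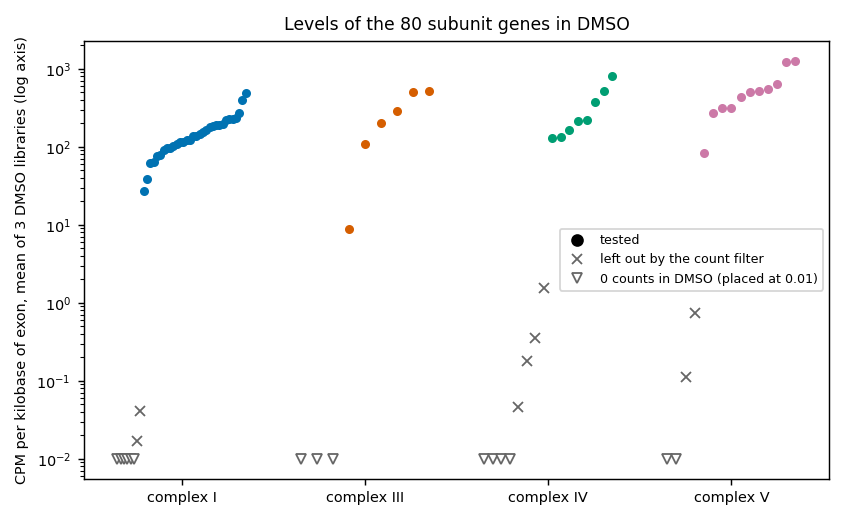
Level of each of the 80 members in DMSO, as CPM per kilobase of exon (mean of 3 libraries, log axis), sorted within each complex. The tested members (filled circles) lie between 8.9 and 1276 CPM per kilobase, above the entries left out by the count filter (crosses) and those at 0 counts in DMSO (open triangles, drawn at 0.01 since 0 has no place on a log axis).

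The share of the transcriptome in nuclear subunits differed little between the 4 groups beside the spread of the libraries. The members together held 1.8 ± 0.134% of all gene counts with DMSO alone, and 1.89 ± 0.0393% (25), 1.9 ± 0.0325% (50) and 1.77 ± 0.0625% (100 µmol/L) with TMPyP4 (SD, n = 3 each). Complex I took 0.521 ± 0.039%, 0.532 ± 0.00643%, 0.557 ± 0.0221% and 0.507 ± 0.0112% in the same order, and complex III took 0.221 ± 0.0181%, 0.213 ± 0.0021%, 0.222 ± 0.00791% and 0.209 ± 0.0136%. Complex IV took 0.198 ± 0.0165%, 0.212 ± 0.0104%, 0.21 ± 0.0112% and 0.19 ± 0.00215%, and complex V took 0.861 ± 0.0631%, 0.934 ± 0.0331%, 0.915 ± 0.0121% and 0.862 ± 0.0455%. For each complex, the ranges of mean ± SD of DMSO and of each concentration overlapped. Over all 9 TMPyP4 libraries, complex I had 0.532 ± 0.0252% (SD, n = 9) against 0.521 ± 0.039% in DMSO (SD, n = 3), a difference smaller than either SD that changed direction when counts were divided by length (0.771 ± 0.0322% against 0.777 ± 0.039%).

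**Figure D2:**
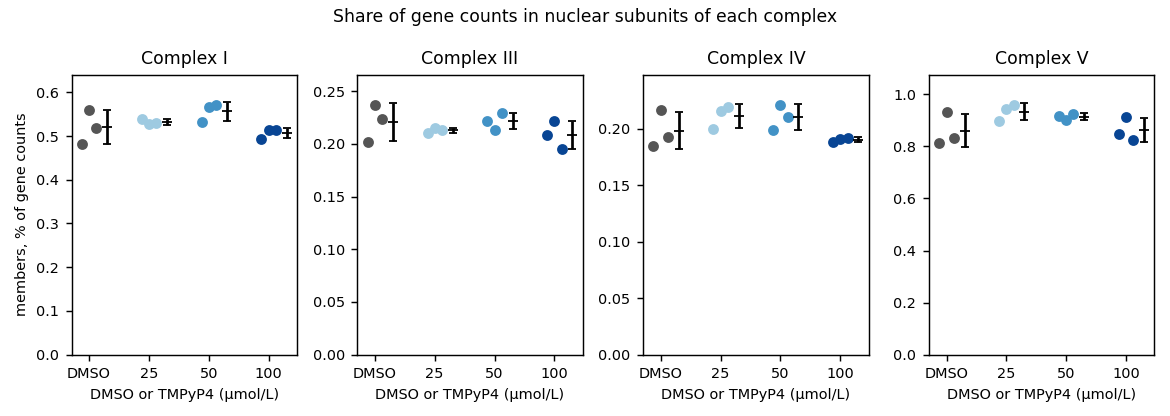
Share of all gene counts held by the members of each complex (per cent, axes from 0), for DMSO and for TMPyP4 at 25, 50 and 100 µmol/L. Circles are the 3 libraries of a group and the bar beside them is their mean ± SD. In complex V the means run from 0.861 to 0.934%, and the spread of the DMSO libraries (SD 0.0631%) is the widest of the 4 groups.

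Few subunits passed the test in any comparison with DMSO, and those that did belonged to complex I. At 25 µmol/L, none of the 57 members passed edgeR's quasi-likelihood test at an adjusted p under 0.05 (0 higher and 0 lower), where 1.66% of the 7328 genes tested did (0.532% higher and 1.13% lower). For 6 members the unadjusted p was under 0.05, as for 15.6% of all genes, and DESeq2 called 0, beside 3.62% of all genes. At 50 µmol/L, 2 members were higher, ND-AGGG and ND-15, and 0 lower, beside 6.85% of all genes called (1.69% higher and 5.16% lower). Here 18 members had an unadjusted p under 0.05, as did 26.2% of all genes. DESeq2 called 4, adding ATPsynbeta and ATPsynF, beside 10.7% of all genes. At 100 µmol/L, 0 members passed where 5.17% of all genes did (1.58% higher and 3.59% lower). An unadjusted p under 0.05 was found for 4 members and for 21.8% of all genes, and DESeq2 called 1, ND-AGGG, beside 8.06% of all genes. In the mean of the 3 concentrations against DMSO, ND-AGGG and ND-15 were again higher, 0 were lower, beside 9.83% of all genes called (3% higher and 6.82% lower). In this comparison 9 members had an unadjusted p under 0.05, as did 25.5% of all genes, and DESeq2 called 3, adding UQCR-11, beside 12.3% of all genes. The comparisons with DMSO share the DMSO libraries. The members' count of 2 in 57 lay near the background of higher genes in both comparisons that called them. Both members were among the 1453 genes in the shortest of 5 equal length classes, described below. Of that class, 67 genes were higher at 50 µmol/L and 88 over all TMPyP4 libraries.

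ND-AGGG (FBgn0058002, chromosome 3L, 24976254 to 24977118, plus strand) encodes a small membrane-arm subunit of complex I. It had 19.5, 23.8 and 17.6 CPM in the DMSO libraries, 25.8, 26.2 and 29.5 at 25, 30.9, 29.5 and 32.4 at 50 and 27.4, 28.9 and 30.7 at 100 µmol/L. Every TMPyP4 library lay above every DMSO library, which no other tested member showed over all 9 and which 3.74% of all genes tested showed; none lay below DMSO in all 9, where 4.41% of all genes did. Against DMSO the log2 fold change came to 0.42 at 25 (SE 0.146, edgeR adjusted p = 0.163), 0.61 at 50 (SE 0.148, edgeR adjusted p = 0.0249) and 0.52 at 100 µmol/L (SE 0.147, edgeR adjusted p = 0.0501). Over all TMPyP4 libraries it was 0.52 (SE 0.123, edgeR adjusted p = 0.0139), and with an offset for gene length it was 0.2 (edgeR adjusted p = 0.359). The call over all TMPyP4 libraries ended without DMSO replicate 1 (log2 fold change 0.49, edgeR adjusted p = 0.0907) and without DMSO replicate 3 (0.42, edgeR adjusted p = 0.106). The call at 50 µmol/L ended without TMPyP4 replicate 2 or 3 or DMSO replicate 1 or 3, with log2 fold changes of 0.64, 0.58, 0.58 and 0.52 and edgeR adjusted p of 0.0847, 0.0988, 0.103 and 0.0921. It also ended in a fit of only the groups compared (0.61, edgeR adjusted p = 0.0749). With a block on runs of the title numbers, chosen after seeing the data, the calls at 50 µmol/L (0.54, edgeR adjusted p = 0.172) and over all TMPyP4 libraries (0.5, edgeR adjusted p = 0.0889) both ended.

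ND-15 (FBgn0031228, chromosome 2L, 114726 to 156030, plus strand) encodes a further accessory subunit of complex I. It had 107.4, 128.2 and 114.8 CPM in the DMSO libraries, 142.9, 137.2 and 158.1 at 25, 147.6, 179.1 and 147.8 at 50 and 122.7, 146 and 148.6 at 100 µmol/L. The libraries at 25 and 50 µmol/L all lay above those in DMSO, and 1 library at 100 µmol/L lay within the range of DMSO. Set against DMSO, the log2 fold change came to 0.32 at 25 (SE 0.112, edgeR adjusted p = 0.162), 0.44 at 50 (SE 0.113, edgeR adjusted p = 0.0316) and 0.25 at 100 µmol/L (SE 0.112, edgeR adjusted p = 0.204). Over all TMPyP4 libraries it was 0.34 (SE 0.093, edgeR adjusted p = 0.0307), and with the length offset it was 0.14 (edgeR adjusted p = 0.265). Of its exonic bases, 15.7% are shared with Pus10 on the other strand. The call at 50 µmol/L ended without TMPyP4 replicate 2 or 3 or DMSO replicate 1 or 3, with log2 fold changes of 0.33, 0.48, 0.38 and 0.42. The call over all TMPyP4 libraries ended without DMSO replicate 1 (0.28) or 3 (0.325), without TMPyP4 replicate 3 at 25 µmol/L (0.32), and without replicate 2 (0.32) or 3 (0.31) at 100 µmol/L. The fit of only the groups compared ended the call at 50 µmol/L (edgeR adjusted p = 0.0708), and the block on title runs ended both calls (edgeR adjusted p = 0.239 at 50 µmol/L and 0.208 over all TMPyP4 libraries).

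The other named subunits of complex I did not pass the test in any of these comparisons. The core subunits of the peripheral arm had log2 fold changes over all TMPyP4 libraries of -0.02 for ND-75 (95% interval -0.26 to 0.22), 0.05 for ND-51 (-0.15 to 0.26) and 0.06 for ND-49 (-0.12 to 0.24). ND-75 had 539.2, 638.2 and 625.3 CPM in the DMSO libraries, 658.5, 491.5 and 457.9 at 25, 591, 698 and 743.6 at 50 and 527.8, 550.4 and 655.9 at 100 µmol/L, and all 3 concentrations overlapped with DMSO. For ND-B12, the most abundant tested member of complex I per kilobase, the estimate was 0.1 (SE 0.116, edgeR adjusted p = 0.636). ND-19 had the lowest value of the complex, -0.07 (SE 0.121, edgeR adjusted p = 0.765). It had 66.6, 109.8 and 79.1 CPM in the DMSO libraries, 80.2, 75.5 and 79.7 at 25, 86.2, 106.2 and 90.9 at 50 and 71.2, 64.3 and 79.1 at 100 µmol/L, and the spread of the DMSO libraries covered nearly the whole range. Across the 32 tested members of complex I, the log2 fold changes had medians of 0.06 (25), 0.21 (50) and 0.02 (100 µmol/L), beside medians of 0.01, 0.02 and 0.015 over all genes tested.

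In complex III none of the 6 tested members passed the test in any comparison. UQCR-11 (FBgn0260008, chromosome 3L, 25120709 to 25126171, plus strand) had 12.2, 18.2 and 12.7 CPM in the DMSO libraries, 19.9, 22 and 20.2 at 25, 17.2, 21.7 and 17.4 at 50 and 19.7, 25.9 and 18.5 at 100 µmol/L. The libraries at 25 and 100 µmol/L all lay above those in DMSO, and 2 of the libraries at 50 µmol/L lay below the highest DMSO library. Its log2 fold change over all TMPyP4 libraries was 0.49 (SE 0.163, edgeR adjusted p = 0.0648), with 0.41 under the length offset. Without DMSO replicate 2, the highest of the 3, it was 0.68 and passed (edgeR adjusted p = 0.0226), as it did without TMPyP4 replicate 1 at 50 µmol/L (edgeR adjusted p = 0.0473). The core proteins UQCR-C1 and UQCR-C2, which are related to mitochondrial processing peptidases, had log2 fold changes of 0.01 (95% interval -0.18 to 0.2) and -0.08 (-0.27 to 0.12). UQCR-C1 had 696, 906.8 and 856.6 CPM in the DMSO libraries, 808.2, 782.1 and 775.9 at 25, 841.4, 865.2 and 894.2 at 50 and 825.3, 878.8 and 746.3 at 100 µmol/L, with overlap at each concentration. The direction for UQCR-C1 turned under other size factors and under the length offset.

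In complex IV, cytochrome c oxidase, none of the 8 tested members passed the test in any comparison. COX5A had 579.3, 708.5 and 651 CPM in the DMSO libraries, 662.6, 631.1 and 630 at 25, 629.1, 925.8 and 726.8 at 50 and 566.9, 549.6 and 654.5 at 100 µmol/L. The highest of these values came from replicate 2 at 50 µmol/L. Its log2 fold change over all TMPyP4 libraries was 0.03 (SE 0.107, edgeR adjusted p = 0.89). COX7B had the highest value of the complex, 0.18 (SE 0.099, edgeR adjusted p = 0.255), COX6B had 0.12 (SE 0.098, edgeR adjusted p = 0.46), and COX4 had 0.08 (SE 0.093, edgeR adjusted p = 0.634). All 8 point estimates over all TMPyP4 libraries were above 0, from 0.03 to 0.18 with a median of 0.13. Under the length offset all 8 were below 0, with a median of -0.22. Of all 7328 genes tested, 3880 were above 0 without the offset and 3844 below 0 with it. Of the 1453 genes in the shortest length class, described below, these were 1213 and 1041.

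In complex V none of the 11 tested members passed the test in any comparison. All 11 point estimates over all TMPyP4 libraries were above 0, from 0.01 to 0.19, of which 8 were below 0 under the length offset. Of the 1453 genes in the shortest length class, 1213 were above 0 without the offset and 1041 below 0 with it. ATPsynbeta had 2717, 3219 and 2930 CPM in the DMSO libraries, 3385, 3229 and 3415 at 25, 3351, 3766 and 3499 at 50 and 3153, 3373 and 3198 at 100 µmol/L. The libraries at 25 and 50 µmol/L all lay above those in DMSO, and 2 of the 3 at 100 µmol/L lay below the highest DMSO library. Its log2 fold change over all TMPyP4 libraries was 0.19 (SE 0.088, edgeR adjusted p = 0.187), and 0.22 with the length offset. ATPsynF, a subunit of the membrane part, had 0.19 (SE 0.086, edgeR adjusted p = 0.178). ATPsynC had 0.12 (SE 0.093, edgeR adjusted p = 0.455) and ATPsyngamma 0.01 (SE 0.099, edgeR adjusted p = 0.972).

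**Figure D3:**
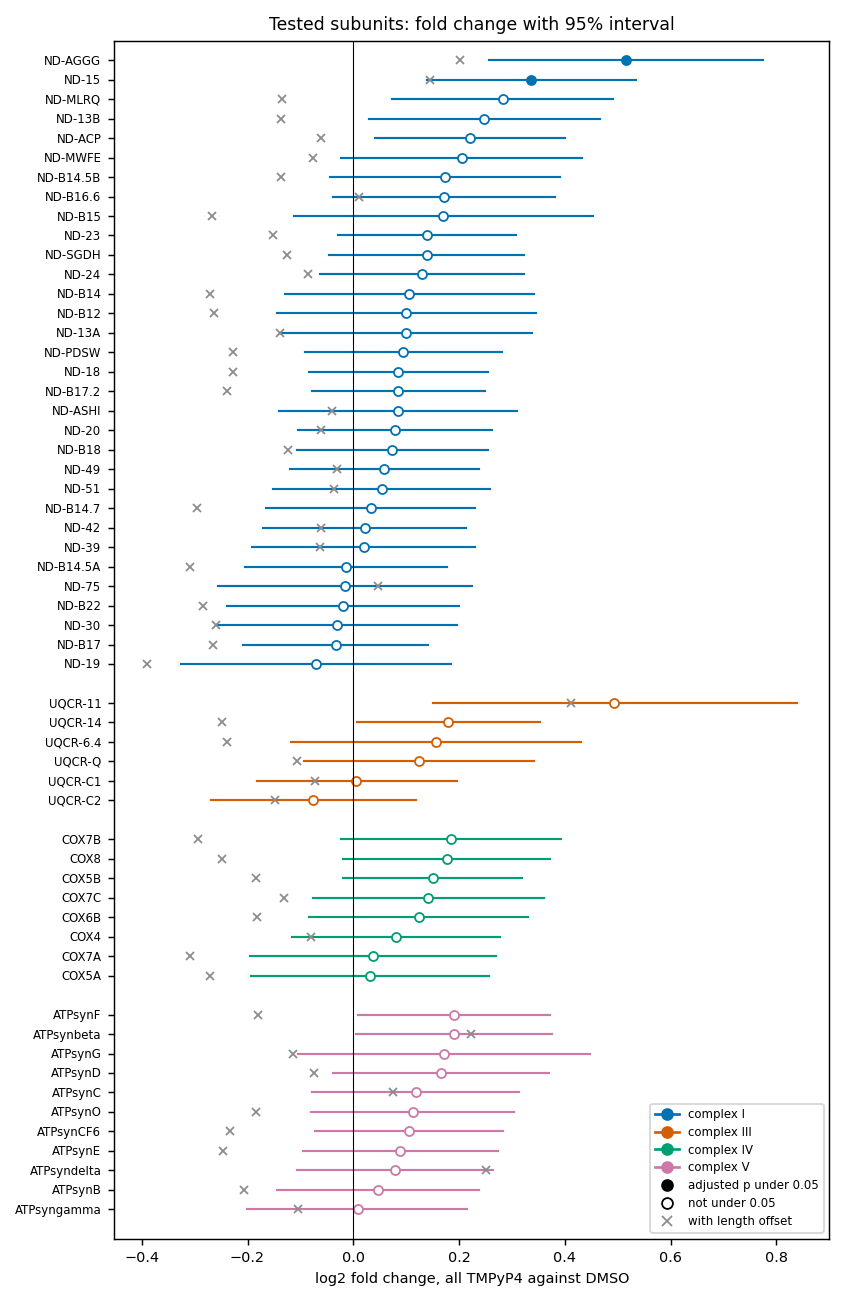
Log2 fold change of all TMPyP4 libraries against DMSO for the 57 tested members, sorted within each complex, with 95% intervals from edgeR's fit. Filled circles mark an adjusted p under 0.05 (ND-AGGG and ND-15) and open circles the other members. Grey crosses mark the estimate with the length offset, which lies left of 0 for 49 of 57 members. With the offset, 3844 of all 7328 genes tested and 1041 of the 1453 in the shortest length class were below 0.

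Within the fit without a length offset, the precision of these estimates limits the size of a change that could have been missed. The intervals do not cover the effect of the offset. For COX5A at 100 µmol/L the 95% interval was -0.406 to 0.146 without it and -0.595 to -0.235 with it. For the 57 members, SEs of the log2 fold change had medians of 0.115 (25), 0.116 (50), 0.115 (100 µmol/L) and 0.094 (all TMPyP4 libraries). The 95% interval lay wholly between -0.5 and 0.5 for 50 of the 57 members at 25, 41 at 50 and 54 at 100 µmol/L, and for 54 over all TMPyP4 libraries. The same held for 46.4%, 38.2%, 43.1% and 52.9% of all genes tested, whose median SE was larger (0.131 over all TMPyP4 libraries). All 3 treated libraries lay above all 3 DMSO libraries for 5 members at 25, 10 at 50 and 4 at 100 µmol/L, where 10.8%, 12.8% and 13.7% of all genes did so, and all lay below for 0 members in each, where 8.62%, 13% and 13.4% of all genes did so.

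A joint test asked whether the 3 concentrations differed among themselves. None of the 57 members passed it (edgeR, adjusted p under 0.05), where 0.314% of all genes did. For 7 the unadjusted p was under 0.05, as for 7.91% of all genes, and DESeq2 called 0, beside 0.696% of all genes. Against DMSO, the log2 fold changes of the members had medians of 0.1 (25), 0.185 (50) and 0.03 (100 µmol/L), and the number of members above 0 was 39, 56 and 40 of 57. Of all 7328 genes tested, 3846, 3851 and 3824 were above 0. Of the 1453 genes in the shortest length class, described below, 1145, 1236 and 1107 were. With an offset for gene length the members' medians were -0.12, -0.14 and -0.22, so the direction of the group turned.

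The direction of the subunits as a group depended on how transcript length was treated. The tested members were short, with a median exonic length of 844 bases against 2084 over all genes tested, and 41 of the 57 fell in the shortest of 5 equal length classes of the tested genes (at most 1149 bases). In that class, the median log2 fold change of all genes was 0.147 at 25, 0.235 at 50, 0.145 at 100 µmol/L and 0.17 over all TMPyP4 libraries. In the longest class it was -0.27, -0.49, -0.37 and -0.36. The 41 members within the shortest class had medians of 0.12, 0.21, 0.04 and 0.12, in each case below that of their class. Across the 57 members the log2 fold change over all TMPyP4 libraries had a Pearson correlation of -0.223 with log2 length, and of 0.704 after the offset, which is a linear term fitted to all genes of each library. These correlations are across genes that share libraries and are given as a description.

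With that offset, 8 of 57 members were lower at 100 µmol/L and 0 higher (edgeR adjusted p under 0.05), beside 2.78% of all genes lower and 1.88% higher. They were ND-19, ND-B14.5A, ND-B12, ND-B14.7, ND-PDSW and ND-B17.2 of complex I and COX5A and COX7B of complex IV. All 8 were in the shortest length class, where 70 of 1453 genes were lower and 13 higher. At 25 and 50 µmol/L, 0 members passed in either direction, beside 0.45% and 0.873% of all genes lower and 0.532% and 0.491% higher. An unadjusted p under 0.05 was found for 14 and 20 members there, and for 13.7% and 18.2% of all genes. Over all TMPyP4 libraries 7 members were lower and 0 higher, beside 3.68% of all genes lower and 2.05% higher. The 7 were ND-B14.7, ND-19, ND-B14.5A, ND-B12 and ND-18 of complex I and COX5A and COX7B of complex IV. All 7 were in the shortest length class, where 100 of 1453 genes were lower and 8 higher. ND-19 had the lowest estimate, -0.55 at 100 µmol/L (edgeR adjusted p = 0.0101) and -0.39 over all TMPyP4 libraries (edgeR adjusted p = 0.0132). No member of complex III or V was called with the offset. In edgeR's test of all 12 libraries without the offset, none of these members was called, and neither ND-AGGG nor ND-15 was called with it. When 1 library was left out and no offset used, 3 of them passed as higher at 50 µmol/L. These were COX7B (log2 fold change 0.44) and ND-B12 (0.44) without DMSO replicate 2, and ND-18 (0.35) without TMPyP4 replicate 1. After the offset, the shortest length class of all genes had a median of -0.13 at 100 µmol/L, so the sign turned for short genes as a whole too.

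**Figure D4:**
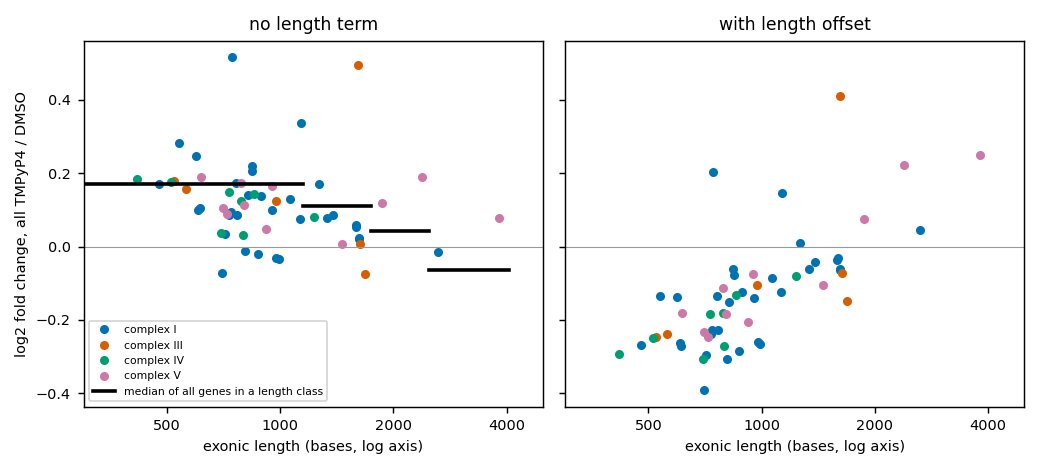
Log2 fold change of all TMPyP4 libraries against DMSO for the 57 tested members against their exonic length (bases, log axis), without a length term (left) and with the length offset (right), coloured by complex. Black lines at left are the medians of all genes in the 4 shorter of 5 equal length classes (0.17, 0.11, 0.04 and -0.06). The members of the shortest class have a median of 0.12, below the line at 0.17, and at right ND-19 lies lowest at -0.39.

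Single libraries moved the subunits together. The median deviation of the 57 members from their own mean log2 CPM was -0.23, 0.1 and -0.13 in DMSO replicates 1, 2 and 3. It was 0.004, 0.001 and 0.012 at 25, -0.007, 0.264 and 0.102 at 50, and -0.111, 0.013 and -0.007 at 100 µmol/L. DMSO replicate 2 lay above every library at 25 and 100 µmol/L and above 1 of the 3 at 50 µmol/L, while DMSO replicates 1 and 3 were the lowest of all 12. In DMSO replicate 1, 1 of 57 members was above its mean over the libraries, and in replicate 2 at 50 µmol/L, 56 of 57 were. Complexes I, III, IV and V moved alike in these libraries, with -0.22, -0.23, -0.22 and -0.23 in DMSO replicate 1 and 0.28, 0.17, 0.26 and 0.21 in replicate 2 at 50 µmol/L. Over all genes, the dependence of log2 CPM on length was taken as a slope per log2 unit of length. It was highest in DMSO replicate 1 (0.264) and lowest in replicate 2 at 50 µmol/L (-0.222), the libraries where the members were lowest and highest. Some other libraries kept this order, such as DMSO replicate 3 (slope 0.154, members -0.13) and replicate 3 at 50 µmol/L (-0.108 and 0.102). Replicate 1 at 100 µmol/L also had a positive slope with members below their mean (0.0285 and -0.111). Others did not keep the order: DMSO replicate 2 (0.0545 and 0.1) and replicate 3 at 100 µmol/L (-0.109 and -0.007). The part of length in these shifts was not tested.

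**Figure D5:**
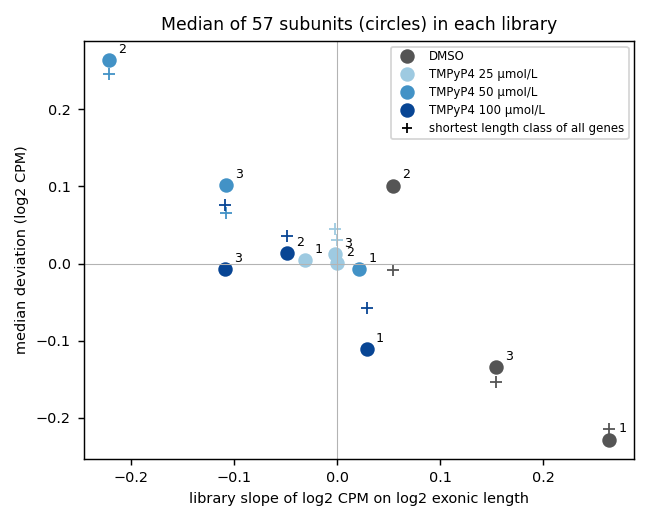
Median deviation of the 57 tested members from their own mean (log2 CPM, circles, numbered by replicate) against the slope of log2 CPM with log2 length over all genes of a library; plus signs give the shortest length class of all genes in that library. DMSO replicate 1 lies at the lower right (slope 0.264, deviation -0.23) and replicate 2 at 50 µmol/L at the upper left (-0.222 and 0.264). DMSO replicate 2 departs from this order (0.0545 and 0.101).

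The count of members passing at 50 µmol/L depended on single libraries. Without DMSO replicate 2 it was 9, without TMPyP4 replicate 1 it was 10, and without any 1 of DMSO replicates 1 and 3 or TMPyP4 replicates 2 and 3 it was 0. The members' median at 100 µmol/L was -0.02 without DMSO replicate 1, and the count there was 2 without DMSO replicate 2. Over all TMPyP4 libraries the count was 0 without DMSO replicate 1 or 3, 4 without DMSO replicate 2 or without replicate 1 at 50 µmol/L, and 1 without replicate 3 at 25 or replicate 2 or 3 at 100 µmol/L.

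Genes that work beside these subunits were read from lists. The 6 subunits of complexes III, IV and V with other symbols (Cyt-c1, RFeSP, cype, levy, blw and sun) gave 0 calls in any comparison with DMSO. Their median log2 fold change was 0.04 over all TMPyP4 libraries. With the length offset 2 of them, cype and levy of complex IV, were lower there, beside 3.68% of all genes. At 50 µmol/L cype was lower too (edgeR adjusted p = 0.0392), beside 0.873%. The 4 subunits of complex II, succinate dehydrogenase, likewise gave 0 calls, with a median of 0.01. With the offset 1 of them, SdhC, was lower at 100 µmol/L (edgeR adjusted p = 0.0443) and over all TMPyP4 libraries (edgeR adjusted p = 0.0497), beside 2.78% and 3.68% of all genes. Cyt-c-p, the somatic cytochrome c that carries electrons from complex III to complex IV, had 276.9, 293.5 and 263 CPM in the DMSO libraries, 347.1, 345.6 and 334.6 at 25, 326.6, 439.8 and 352.3 at 50 and 353.6, 391.1 and 396.4 at 100 µmol/L. Every TMPyP4 library lay above every DMSO library, as for 3.74% of all genes tested. Cyt-c-p rose at 50 (log2 fold change 0.42, edgeR adjusted p = 0.0316) and at 100 µmol/L (0.45, edgeR adjusted p = 0.0258). Over all TMPyP4 libraries it had 0.39 (edgeR adjusted p = 0.0127), which became 0.04 with the length offset. Of all genes, 1.69%, 1.58% and 3% were higher in these comparisons. Cyt-c-p (681 bases) is in the shortest length class, where 67, 41 and 88 of 1453 genes were higher. Its testis-type relative Cyt-c-d had at most 2 counts in a library.

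Of 13 tested assembly factors, 1 was higher over all TMPyP4 libraries, beside 3% of all genes, and 0 were called at a single concentration. The 1 was Nubpl, which supplies iron-sulfur clusters to complex I (log2 fold change 0.33, edgeR adjusted p = 0.0486). With the length offset Nubpl remained higher, beside 2.05% of all genes. It was then higher at 50 and 100 µmol/L too (edgeR adjusted p = 0.0274 and 0.0487), beside 0.491% and 1.88%. The copper chaperone Cox17 was lower with the offset over all TMPyP4 libraries (-0.46, edgeR adjusted p = 0.0068) and at 100 µmol/L (-0.61, edgeR adjusted p = 0.00597), beside 3.68% and 2.78%. Of 13 tested genes of the tricarboxylic acid cycle, 1 was lower at 50 µmol/L, beside 5.16% of all genes. It was the citrate synthase kdn (-0.9, edgeR adjusted p = 0.0436, and 0.0929 with the offset). At 25, at 100 µmol/L and over all TMPyP4 libraries 0 genes of the cycle were called. Of 12 glycolytic genes, 1 was higher, lactate dehydrogenase Ldh, at 50 (1.115, edgeR adjusted p = 0.037) and 100 µmol/L (1.71, edgeR adjusted p = 0.00421) and over all TMPyP4 libraries (1.2, edgeR adjusted p = 0.00748), beside 1.69%, 1.58% and 3% of all genes higher. Ldh averaged 4.84 ± 1.71 CPM in DMSO and 8.36 ± 1.4, 10.7 ± 2.68 and 16 ± 4.17 CPM at 25, 50 and 100 µmol/L (SD, n = 3 each), and with the offset its call at 50 µmol/L was lost (edgeR adjusted p = 0.0752). The offset also added the aldolase Ald1 as higher at 100 µmol/L (0.48, edgeR adjusted p = 0.0217), beside 1.88% of all genes. The 10 tested regulators and genes for upkeep of mitochondrial DNA gave 0 calls. With the offset 1, mtSSB, was lower over all TMPyP4 libraries (-0.33, edgeR adjusted p = 0.00965) and at 100 µmol/L (-0.43, edgeR adjusted p = 0.0101), beside 3.68% and 2.78% of all genes.

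Subunits from the mitochondrial genome assemble with the nuclear ones, and 11 of 13 could be tested. Their log2 fold changes had medians of 0.36 (25), 0.45 (50) and 0.36 (100 µmol/L), beside 0.1, 0.185 and 0.03 for the nuclear members and 0.01, 0.02 and 0.015 over all genes. Over all TMPyP4 libraries their SEs ran from 0.127 for mt:ND1 to 0.548 for mt:ND6, beside a median of 0.094 for the nuclear members. mt:ND6 had at most 19 counts in a library. mt:CoI had 1910, 1210 and 1189 CPM in the DMSO libraries and 1249 to 2366 with TMPyP4, so the groups overlapped. Of the 11, mt:ND1 was higher at 50 µmol/L (0.65, edgeR adjusted p = 0.0213, and 0.256 with the offset), beside 1.69% of all genes. At 25, at 100 µmol/L and over all TMPyP4 libraries 0 were called. With the length offset the median over all TMPyP4 libraries was 0.22 for the 11 mitochondrial genes and -0.14 for the 57 nuclear members. The libraries were selected for polyadenylated RNA, and the difference between nuclear and mitochondrial subunits was not tested.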

How the data were processed

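Poly(A)-selected, stranded RNA libraries of S2 cells, 12 in all, were analysed. The authors deposited whole-number read counts per gene. HISAT2 2.0.5, SAMtools 1.7, HTSeq 0.9.1, FastQC 0.11.8, MultiQC 0.9 and the build dm6 are named in the submitters' processing notes, without their roles. The annotation they counted with is not given in the sources used here, nor is how zebrafish RNA, which the labels name as part of the preparation, was set aside. The 5 entries for reads outside genes were left out (no feature 0.783 to 1.04% and ambiguous 1.87 to 2.71% of the counts, 3 at 0). Columns matched to no sample numbered 0.

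Symbols, positions and exonic lengths came from BDGP6.54, which matched 17358 of 17494 identifiers and need not be the authors' own. Sequences were not used here. Genes were kept with filterByExpr (minimum count 10, total 15), which left 7328. Counts were scaled by TMM and tested with edgeR 4.0.16 in R 4.3.3 (glmQLFit, glmQLFTest, two-sided), in a model of the 12 libraries with no term beside group. Benjamini-Hochberg adjustment ran over all 7328 genes of each comparison, with a threshold of 0.05. The comparisons were each concentration and the mean of the 3 against DMSO, and any difference among the 3. Each SE is the absolute log2 fold change over the square root of F. The length offset was each library's linear slope of log2 CPM with log2 length over the 7263 tested genes with a length. Alternatives were RLE size factors, no filter, DESeq2 1.42.0, the length offset, replicate blocks, only the compared groups, and leaving out each library. The fitting was tested on simulated data.

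Members named with values were those past the threshold, the highest and lowest fold change and the most abundant member per kilobase of each complex, and ND-75, ND-51, ND-49, UQCR-C1, UQCR-C2, COX4, COX5A, COX6B, ATPsynbeta and ATPsynC; others named were chosen after their values were seen. Members and lists were chosen with earlier results of these data known. Libraries of a group differed by more than sampling noise (chi-square per gene 4.06 to 24.6), so all 12 were kept.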

Additional observations from a re-analysis of the deposited data

How the results depend on the processing

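RLE size factors and the lack of a count filter kept the counts of members called within 1.5 times of the values given and the sign of every median. DESeq2 called 0, 4, 1 and 3 members at 25, 50, 100 µmol/L and over all TMPyP4 libraries, and a fit of only the groups compared called 0 at 50 µmol/L. With the length offset the members called numbered 0, 0, 8 and 7 (all lower), and their median log2 fold change was -0.122, -0.138, -0.217 and -0.137. Counts per kilobase turned the ratio of summed shares, all TMPyP4 libraries over DMSO, to 0.993 for complex I and 0.994 for complex IV.

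The labels do not say what a replicate number marks. Deviations of same-numbered libraries correlated at -0.378 to 0.442, with 6 of 18 pairs over 0.1. Those of other pairs correlated at -0.383 to 0.362, with 17 of 36 over 0.1. Whether same-numbered libraries share a batch or day cannot be told from these values. With the replicate block the members called were 0, 3, 0 and 4, and with the replicate block and the length offset 0, 0, 4 (lower) and 3 (lower), with medians of -0.123, -0.134, -0.217 and -0.136. A block on runs of the title numbers, chosen after seeing the data, called 0 members in each comparison and gave a median of -0.072 at 100 µmol/L.

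Among named members over all TMPyP4 libraries, the length offset turned the log2 fold change to -0.264 for ND-B12, -0.073 for UQCR-C1, -0.294 for COX7B, -0.271 for COX5A, -0.181 for ATPsynF, -0.104 for ATPsyngamma, 0.046 for ND-75, -0.036 for ND-51, -0.03 for ND-49, -0.08 for COX4 and -0.182 for COX6B. With the replicate block and the length offset these were -0.262 for ND-B12, -0.072 for UQCR-C1, -0.295 for COX7B, -0.271 for COX5A, -0.182 for ATPsynF, -0.098 for ATPsyngamma, 0.048 for ND-75, -0.037 for ND-51, -0.03 for ND-49, -0.077 for COX4 and -0.182 for COX6B. RLE size factors, no filter and DESeq2 each gave UQCR-C1 -0.009, and gave ATPsyngamma -0.007, -0.008 and -0.007. The title-run block gave COX5A -0.077. UQCR-11 passed with the replicate block and with DESeq2.

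Leaving out 1 library at a time, the members called ranged over 0 to 0 at 25, 0 to 10 at 50, 0 to 2 at 100 µmol/L, 0 to 4 over all TMPyP4 libraries and 0 to 0 among concentrations. The medians ranged over 0.029 to 0.179, 0.114 to 0.269, -0.017 to 0.093 and 0.049 to 0.163, and the ratio of summed shares over 0.986 to 1.06 for complex I, 0.929 to 1.01 for III, 0.996 to 1.08 for IV and 1.02 to 1.1 for V. Log2 fold changes of single members over all TMPyP4 libraries ranged over -0.22 to 0.139 for ND-19, -0.056 to 0.278 for ND-B12, -0.154 to -0.012 for UQCR-C2, -0.099 to 0.073 for UQCR-C1, -0.042 to 0.09 for COX5A, -0.108 to 0.137 for ATPsyngamma, -0.089 to 0.019 for ND-75, -0.013 to 0.085 for ND-51, -0.005 to 0.104 for ND-49 and -0.014 to 0.222 for COX4. The causes were not tested. Counting depth of 4669194 to 9662038 limits these values less than the spread between libraries (biological coefficient of variation 0.141).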

Other observations

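The 2 members with the highest log2 fold change over all TMPyP4 libraries, ND-AGGG and UQCR-11, start at 24976254 and 25120709 on chromosome 3L. ND-MLRQ (3L, start 23339326) ranked 4 of 57. ND-AGGG and UQCR-11 also had the lowest counts of the 57, 2302 and 1605 over the 12 libraries. The 23 tested genes on 3L that start beyond 23000000 had a median log2 fold change of 0.22 over all TMPyP4 libraries (3 higher and 0 lower in edgeR's test), and the 1374 that start before it had 0.02 (43 higher and 104 lower). With the length offset the medians were 0.11 and -0.02. The limit was set after these values were seen, the 23 genes include these 3 members and were shorter (median 1307 against 2062 bases), and the difference was not tested.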
